A study of Mus musculus with 2 samples.

Results

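The 4 connexin genes known from the vessel wall, Gja1 (Cx43), Gja4 (Cx37), Gja5 (Cx40) and Gjc1 (Cx45), were followed through 10 cell populations of the mouse aorta. They were taken by gene symbol from a table of 16971 genes, and each symbol matched 1 row. The table holds counts of UMIs (unique molecular identifiers, 1 per captured transcript) in 5451 single cells. The cells came from droplet libraries of dissociated aortas. The donors were wild-type mice of the strain C57/BL6, female and 12 weeks old, on a chow diet. They form a single group with no treatment, transgene or mutant comparator. There were 2 aortas with 1 library each. The deposited cell names end in a library number, and which number belongs to the aorta titled WT1 and which to WT3 is not stated, so they are called library 1 and library 2. The authors' names for the 10 populations were used as given.

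Connexins are the proteins of gap junctions. A ring of them in the membrane of one cell docks with a ring in its neighbour, and the joined channel passes ions and small molecules between the cells. In arteries these channels couple endothelial cells to each other, smooth muscle cells to each other, and the layers to each other through the internal elastic lamina. They carry the electrical signals that spread dilation along a vessel. Cx37 and Cx40 are known as the connexins of arterial endothelium, Cx43 as the more widespread one, and Cx45 as a connexin of smooth muscle and the heart's conduction system. Gja4 is also known from lymphatic valves.

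The populations were EC 1, EC 2 and EC 3 (endothelial), VSMC (vascular smooth muscle), Fibro 1 and Fibro 2 (fibroblasts), Mono 1, Mono 2 and Macro (immune), and Neuron. EC 1 carried the arterial marker list, with 14320 CPM in library 1 and 17051 CPM in library 2. Most of this was Cytl1, and without it the list summed to 1851 and 1549 CPM in EC 1 and 852 and 1088 CPM in EC 2. Of the same list, Sox17, Hey1 and Dll4 were lower in EC 1 than in EC 2. EC 2 carried the capillary list with 12318 and 17137 CPM, and EC 3 the lymphatic list with 31299 and 12878 CPM. Most of the lymphatic list in EC 3 was Ccl21a, and without it the list summed to 6583 and 3273 CPM. EC 3 also had the highest venous list of all populations, 1925 and 2361 CPM against 1288 and 1124 CPM in EC 1. CPM, the usual depth-scaled count, gives the UMIs of a gene or list relative to all UMIs of its population in a library. Cells named Neuron carried the Schwann cell list (10111 and 15701 CPM), and 4 of 5 neuronal genes with a row had no UMI in them. Cells named Macro had no UMI of the macrophage genes Adgre1 and Fcgr1. Library 1 held 2260 cells with a median of 4160.5 UMIs, and library 2 held 3191 cells with a median of 5636 UMIs. The libraries shared 12 cell barcodes. Median UMIs per cell were 2394 and 2790 in EC 2, the shallowest endothelial population, against 4648 and 7154 in VSMC. Levels are given for each library, then as mean ± SD (n = 2 libraries). Intervals are exact 95% intervals and cover counting error only. Differences are log2 folds ± SE from 1 edgeR quasi-likelihood fit to UMIs summed by library and population, and a gene was called at an adjusted p (Benjamini-Hochberg over all 10488 genes tested) under 0.05. All 4 connexins passed the filter on low counts, Gja5 only through its level in EC 1. The populations were named from the expression of these same cells, so the p-values describe differences between clusters that the connexins may have helped to form. The folds of the 4 connexins in the 6 comparisons were also computed with clusters made without any gap junction gene. Those clusters were formed from the same cells and do not remove this limit.

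Gja4 was highest in EC 1. Its level there was 481 CPM in library 1 (interval 428 to 540) and 466 CPM in library 2 (432 to 502), or 474 ± 10.9 CPM (SD, n = 2). EC 3 followed with 101 and 176 CPM, and EC 2 with 94.7 and 35.3 CPM. The lowest EC 1 library lay above the highest library of every other population, while EC 2 and EC 3 lay close together in library 1 and apart in library 2. Gja4 was higher in EC 1 than in EC 3 by 1.80 ± 0.24 (adjusted p = 1.3e-06) and higher than in EC 2 by 3.37 ± 0.27 (adjusted p = 1.47e-11). EC 2 was lower than EC 3 by a log2 fold of -1.57 ± 0.39 (adjusted p = 0.00554), but the fold was -0.09 in library 1 and -2.28 in library 2, and DESeq2 (log2 fold -1.20, adjusted p = 0.198) and cells thinned to 1300 UMIs (-1.66, adjusted p = 0.14) did not call it. Within EC 1, 100 of 148 cells in library 1 and 201 of 277 cells in library 2 had a Gja4 UMI, with up to 14 and 17 UMIs in a cell.

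VSMC also held Gja4, at 37.3 and 29.4 CPM (33.3 ± 5.58, SD, n = 2). This was above Mono 1, the immune population with the most cells, which stood at 14.3 and 9.6 CPM (log2 fold 1.38 ± 0.38, adjusted p = 0.00255, where 51.8% of all genes were called). Mono 2 stood at 3.4 and 2.02 CPM, and how much of an immune level is free RNA was not tested. The VSMC level was above the fibroblasts too, which held 4.16 to 10.1 CPM (2.31 ± 0.24, adjusted p = 1.32e-09). In the order of mean CPM, the steps from EC 2 to Neuron and from Neuron to VSMC were not called, nor was any step from Mono 1 through Macro, Fibro 1 and Fibro 2 to Mono 2. At equal depth, with each cell thinned to 1300 UMIs, 4.08% and 3.88% of VSMC had a Gja4 UMI against 0.552% and 0.763% of Mono 1.

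**Figure D1:**
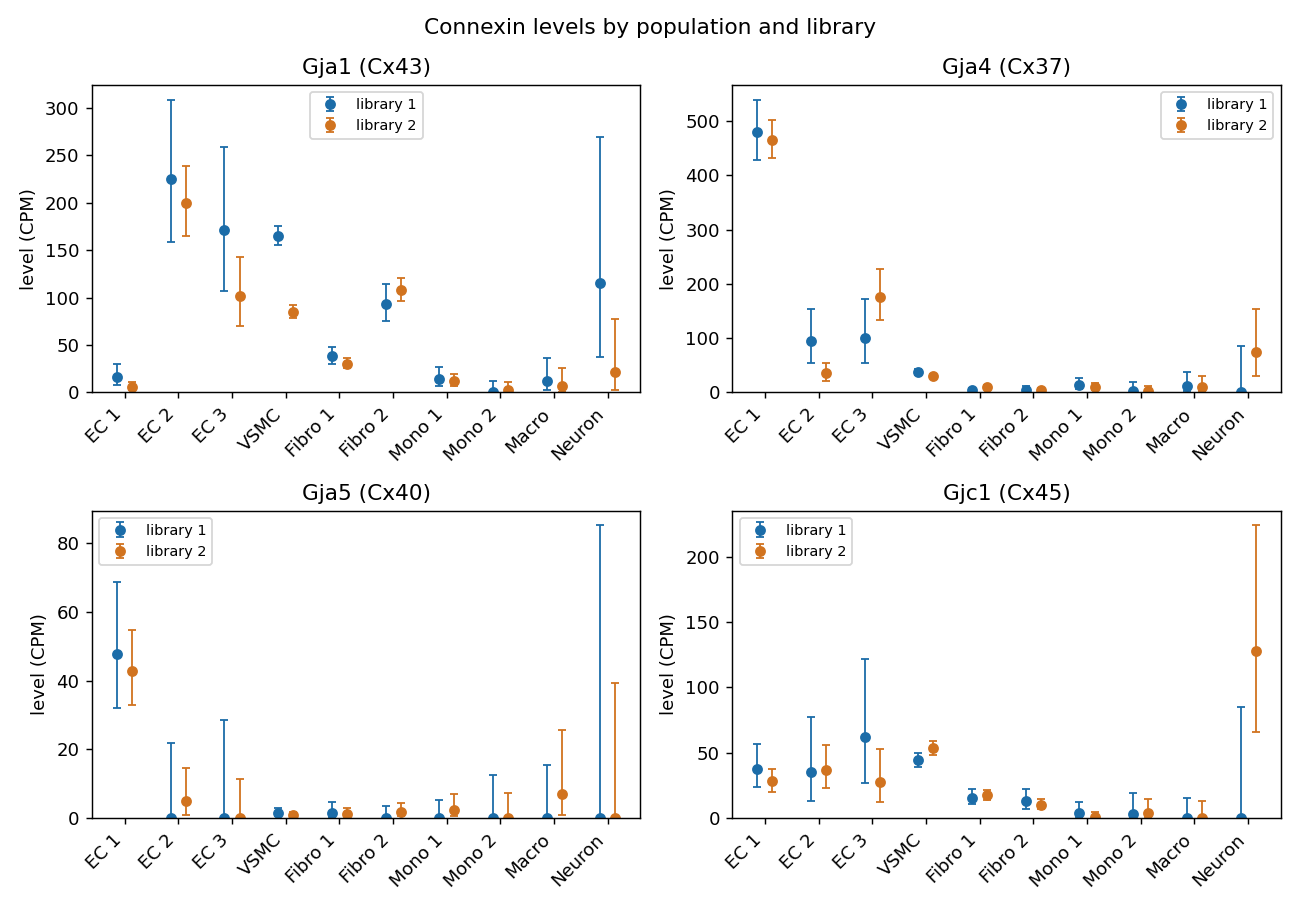
Level of each connexin (CPM, vertical axis) in the 10 populations (horizontal axis). Points are libraries and bars exact 95% Poisson intervals. Gja4 and Gja5 stand out in EC 1 in both libraries, Gja1 is lowest among endothelial cells in EC 1, and the wide bars of Neuron come from 12 and 32 cells.

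The Gja4 signal of EC 2 came from few cells. In library 1 only 5 of 56 EC 2 cells had a Gja4 UMI, and 4 of these had 3 or more. In library 2 it was 12 of 173 cells. Cells were divided by whether they held at least 2 UMIs of a pericyte list (Rgs5, Kcnj8, Abcc9, Higd1b, Cspg4, Pdgfrb, Notch3, Ndufa4l2 and Vtn). Pericytes are the mural cells that wrap capillaries. All 16 Gja4 UMIs of EC 2 in library 1 lay in the 12 cells with such UMIs, and 16 of 21 in library 2 lay in 38 cells. Over both libraries that was 32 of 37 UMIs in 50 of 229 cells, or 143 CPM in these cells against 9.26 CPM in the other EC 2 cells. With such endothelial cells left out, the Gja4 difference between EC 1 and EC 2 was 5.76 ± 0.40 (adjusted p = 5.52e-14), and that between EC 2 and EC 3 was -3.92 ± 0.59 (adjusted p = 5.55e-06). The same division did not separate Gja1 in EC 2, which stood at 196 CPM in the cells with pericyte UMIs and 209 CPM in the others. Yet EC 2 cells with a Gja1 UMI had more of the pericyte list than those without, 1938 against 531 CPM in library 1 and 1329 against 546 CPM in library 2. The EC 2 cells with Gja4 had a median of 4544 UMIs against 2348 in library 1 and of 5748.5 against 2684 in library 2, and the part of depth was not tested. Their arterial list stood at 395 against 1024 CPM in library 1 and at 2862 against 1045 CPM in library 2. In EC 1 it did not separate Gja4 either, with 439 CPM against 474 CPM. All 9 list genes had a UMI in EC 2, where the list summed to 1279 and 871 CPM, against 109 and 81.6 CPM in EC 1. Whether these EC 2 cells are doublets, pericytes or endothelial cells was not tested. Without the cells that Scrublet marked as doublets the difference between EC 1 and EC 2 was 3.69 ± 0.26.

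The Neuron population showed the same division. Gja4 had 7 UMIs in the 32 cells of library 2 and none in the 12 cells of library 1, and Gjc1 had 12 UMIs in library 2 and none in library 1. All 7 Gja4 UMIs and all 12 Gjc1 UMIs lay in 9 cells of library 2 with at least 2 pericyte UMIs, and the other cells of the population had none. The pericyte list summed to 854 CPM there in library 1 and 3450 CPM in library 2. In VSMC, where 1761 of 2159 cells had at least 2 such UMIs, Gja4 did not follow the division over both libraries (33.1 CPM against 31.1 CPM). The libraries differed in direction, with 36.8 against 40.0 CPM in library 1 and 30.4 against 21.0 CPM in library 2. Yet VSMC with a Gja4 UMI had more pericyte-list UMIs than those without, 2278 CPM against 1349 CPM in library 1 and 2492 against 1570 in library 2. Their smooth muscle list stood at 37287 against 33383 CPM and 33664 against 30808 CPM. VSMC with Gja4 were also deeper, with a median of 5873.5 against 4364 UMIs in library 1 and 8312.5 against 6813.5 in library 2. The part of depth was not tested. The divisions by a connexin UMI, here and below, were chosen after the values were seen and carry no test.

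In EC 3, the population with lymphatic markers, Gja4 sat in 8 of 34 cells in library 1 and 14 of 60 in library 2. One cell of library 2 held 20 of its 57 UMIs. EC 3 cells without Gja4 had more of the venous list, 2278 against 1093 CPM in library 1 and 2756 against 1188 CPM in library 2. They also had more of the arterial list, 1372 against 625 CPM and 2546 against 735 CPM. The division by Gja4 is thus not one within purely lymphatic cells. The 6 valve genes described next were not confined to EC 3. They summed to 652 and 771 CPM there, 866 and 907 CPM in EC 1 and 985 and 1200 CPM in VSMC. In EC 1, Foxc2 was seen in 27 of 100 cells with Gja4 and 13 of 48 without in library 1, and in 54 of 201 and 25 of 76 in library 2. In EC 3 Foxc2, a transcription factor of lymphatic valves, had a UMI in 3 of the 8 cells with Gja4 and in 5 of the 26 without it in library 1. In library 2 it had one in 10 of 14 cells with Gja4 and in 7 of 46 without. Cldn11, a tight junction protein found in lymphatic valves, was seen in 5 of 8 against 4 of 26 cells, and in 6 of 14 against 5 of 46. Itga9, the integrin chain of valve leaflets, was seen in 3 of 8 against 12 of 26 cells and in 6 of 14 against 25 of 46, while its level was 130 against 166 CPM in library 1 and 171 against 152 CPM in library 2. Fn1 was seen more often with Gja4 in both libraries. So was Nfatc1, in 3 of 8 against 6 of 26 cells and in 5 of 14 against 13 of 46. Its level was 104 against 66.4 CPM in library 1 and 97.9 against 74.2 CPM in library 2. Gata2 differed in direction between the libraries. The cells with Gja4 were deeper, with a median of 4192 against 2822 UMIs in library 1 and 5054.5 against 4324.5 in library 2, and the part of depth was not tested. As levels, Foxc2 stood at 130 against 66.4 CPM in library 1 and 269 against 61.8 CPM in library 2. CPM does not undo the division into deeper and shallower cells.

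**Figure D2:**
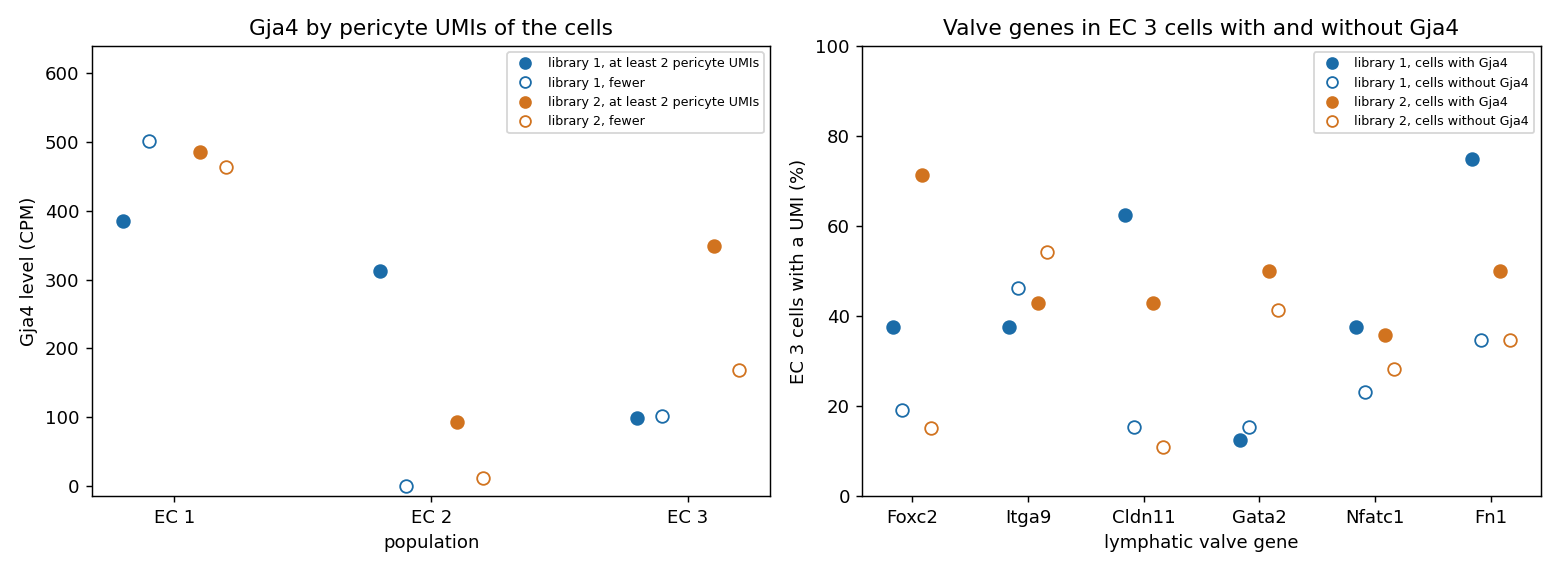
Left, Gja4 level (CPM) in endothelial cells with at least 2 pericyte-list UMIs (filled) and with fewer (open), by library. Right, percent of EC 3 cells with a UMI of each lymphatic valve gene among cells with (filled) and without (open) a Gja4 UMI. The EC 2 points split between 313 and 0 CPM in library 1, and Foxc2 and Cldn11 lie higher with Gja4 in both libraries.

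The level of Gja5 was highest in EC 1. It had 29 UMIs there in library 1 (47.8 CPM, interval 32.0 to 68.7) and 64 in library 2 (42.8 CPM, 32.9 to 54.6), or 45.3 ± 3.56 CPM (SD, n = 2). No other population reached more than 7.08 CPM in a library, and EC 3, Mono 2 and Neuron had no UMI. The 2 EC 1 libraries overlapped no library of another population. EC 1 held 93 Gja5 UMIs and EC 2 held 3, a ratio of 11.3 with a counting interval of 3.74 to 55.7 (log2 fold 3.63 ± 0.76, adjusted p = 0.000561). Library 2 alone gave 2.85, and all 3 UMIs of EC 2 were in library 2. Library 1 alone gave 4.78, but with 0 UMIs in EC 2 this size rests on the prior count of 2 and is not a measured fold. Against EC 3, with 0 UMIs in 94 cells, Gja5 was at least 6.68-fold higher in EC 1 (adjusted p = 0.000756). Against VSMC the difference was 5.12 ± 0.47 (adjusted p = 2.37e-10). No step in the order of means after EC 1, from Macro with 3.54 CPM down to Fibro 2 with 0.924 CPM, was called. The immune level of Gja5 was 0 to 7.08 CPM, and the values of VSMC (1.51 and 0.922 CPM) and the fibroblasts (0 to 1.85 CPM) lay within it. In EC 1, 25 of 148 and 57 of 277 cells had a Gja5 UMI, mostly 1 each, and the highest count in a cell was 3.

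Among endothelial cells, Gja1 did not share the EC 1 peak of Gja4 and Gja5. It was lowest in EC 1, at 16.5 CPM in library 1 and 5.35 CPM in library 2 (10.9 ± 7.88, SD, n = 2), and highest in EC 2 at 225 and 200 CPM (212 ± 17.8). EC 3 had 171 and 102 CPM. VSMC had 165 CPM in library 1 and 85.2 CPM in library 2, and Fibro 2 had 93.1 and 108 CPM. Every library of EC 2, EC 3, VSMC and Fibro 2 lay above both libraries of EC 1. Gja1 was lower in EC 1 than in EC 2 by a log2 fold of -4.45 ± 0.39 (adjusted p = 1.21e-10, with -3.63 in library 1 alone and -4.98 in library 2 alone), than in EC 3 by -3.62 ± 0.50 (adjusted p = 2.84e-06) and than in VSMC by -3.73 ± 0.34 (adjusted p = 7.1e-11). The step between EC 1 and Mono 1, which had 14.3 and 12.0 CPM, was not called (adjusted p = 0.41). EC 2 was above EC 3 by 0.83 ± 0.33, which was not called (adjusted p = 0.115). It was called with no filter on low counts (0.88, adjusted p = 0.0128) and with clusters made without gap junction genes (0.87, adjusted p = 0.0435).

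The next steps in the order of Gja1, EC 3 over VSMC and VSMC over Fibro 2, were smaller than their errors or close to them (-0.11 ± 0.30 and 0.16 ± 0.17). Fibro 1 stood apart from Fibro 2, with 38.5 and 30.3 CPM (log2 fold -1.62 ± 0.21, adjusted p = 4.76e-07). VSMC were above Fibro 1 by 1.78 ± 0.19 (adjusted p = 1.4e-09, where 43.0% of all genes were called). The difference of VSMC from the mean of the fibroblasts was 0.97 ± 0.15 (adjusted p = 1.25e-06), 1.44 in library 1 and 0.56 in library 2. The VSMC levels of the libraries differed by more than counting error, with intervals of 155 to 176 CPM and 78.8 to 92.0 CPM. Within Fibro 1, Gja1 stood at 27.4 CPM in the 988 of 1147 cells with at least 2 pericyte-list UMIs and at 92.1 CPM in the others. In library 1 these levels were 35.4 and 60.7 CPM, and in library 2 they were 24.2 and 115 CPM. Most Fibro 1 cells met this threshold, so it does not mark pericytes there, and deeper cells reach it more readily. The part of depth, and of this division in the difference from Fibro 2, was not tested. In Fibro 1 of library 2, 1 cell held 18 of the 141 Gja1 UMIs.

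Within EC 3, Gja1 went with the sum of the lymphatic list. Most of that sum in EC 3 was Ccl21a (24716 of 31299 CPM in library 1 and 9605 of 12878 CPM in library 2). The single genes of the list were not divided in this way. Cells with a Gja1 UMI had 50282 CPM of the lymphatic list against 15987 CPM without in library 1 (14 and 20 cells), and 26434 against 6355 CPM in library 2 (22 and 38 cells). Cells with Gja4 did not share this in both libraries (42097 against 26711 CPM, and 11472 against 13351 CPM). EC 3 cells without Gja1 had more of the venous list, 2174 against 1617 CPM in library 1 and 2936 against 1167 CPM in library 2. Their arterial list was higher too, 1444 against 782 CPM and 2785 against 645 CPM. Cldn11 was seen in fewer EC 3 cells with Gja1 than without, in 2 of 14 against 7 of 20 and in 3 of 22 against 8 of 38. Gata2 went the same way, with 0 of 14 against 5 of 20 cells and 5 of 22 against 21 of 38. Nfatc1 was seen slightly more often with Gja1, in 4 of 14 against 5 of 20 cells and in 8 of 22 against 10 of 38. Its level was 69.5 against 84.1 CPM in library 1 and 104 against 68.5 CPM in library 2. The shares of Foxc2, Itga9 and Fn1 differed in direction between the libraries. Depth did not move one way with Gja1, the medians being 3786.5 against 2696 UMIs in library 1 and 4072 against 5452.5 in library 2.

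Gjc1 was found in smooth muscle and in all endothelial populations. It was 44.3 and 53.5 CPM in VSMC (48.9 mean), 62.1 and 27.7 CPM in EC 3, 35.5 and 36.9 CPM in EC 2, and 37.9 and 28.1 CPM in EC 1. In EC 2, 12 of 28 Gjc1 UMIs lay in the 50 of 229 cells with at least 2 pericyte-list UMIs. Gjc1 stood at 58.6 CPM in these against 25.5 CPM in the others in library 1, and 51.9 against 30.8 CPM in library 2. The endothelial libraries overlapped each other, and the folds between endothelial populations were -0.10 ± 0.41, -0.09 ± 0.48 and 0.01 ± 0.54, none called. Between EC 2 and EC 3 the libraries differed in sign, with -0.78 in library 1 alone and 0.40 in library 2 alone. With errors of this size equal levels are not shown. VSMC were above the fibroblasts by 1.83 ± 0.18 (adjusted p = 3.86e-10), and the fibroblast libraries, at 10.4 to 17.4 CPM, did not overlap the VSMC libraries. EC 1 was lower than VSMC by -0.69 ± 0.24 (adjusted p = 0.0224). That call was lost in DESeq2 (adjusted p = 0.235), without the library term (adjusted p = 0.113) and in thinned cells (adjusted p = 0.212). The immune populations had 0 to 4.29 CPM, and Macro had no Gjc1 UMI in 167 cells. Neuron had the highest mean, 64.1 CPM, which rested on the 9 cells of library 2 described above.

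Over the 6 comparisons the connexins were called in 15 of 24 tests, and in all 15 both libraries taken alone gave the same direction. Between EC 1 and EC 2, 3 of 4 were called where 20.3% of all genes were, and between EC 1 and EC 3, 3 of 4 with a background of 11.6%. Between EC 2 and EC 3 it was 1 of 4 (background 11.7%), between EC 1 and VSMC 4 of 4 (40.0%), between VSMC and the fibroblasts 3 of 4 (48.3%), and between the fibroblast populations 1 of 4 (15.5%). The comparisons share populations, so their calls are not independent. Of all 45 pairs of populations, Gja1 and Gjc1 were called in 28 each, Gja4 in 25 and Gja5 in 9, where 28.6% of all tests over genes and pairs were called. The 9 pairs of Gja5 were those with EC 1, the only population through which it passed the filter. These calls, and those of Gja5 among the 15, are therefore no separate support for its place in EC 1.

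**Figure D3:**
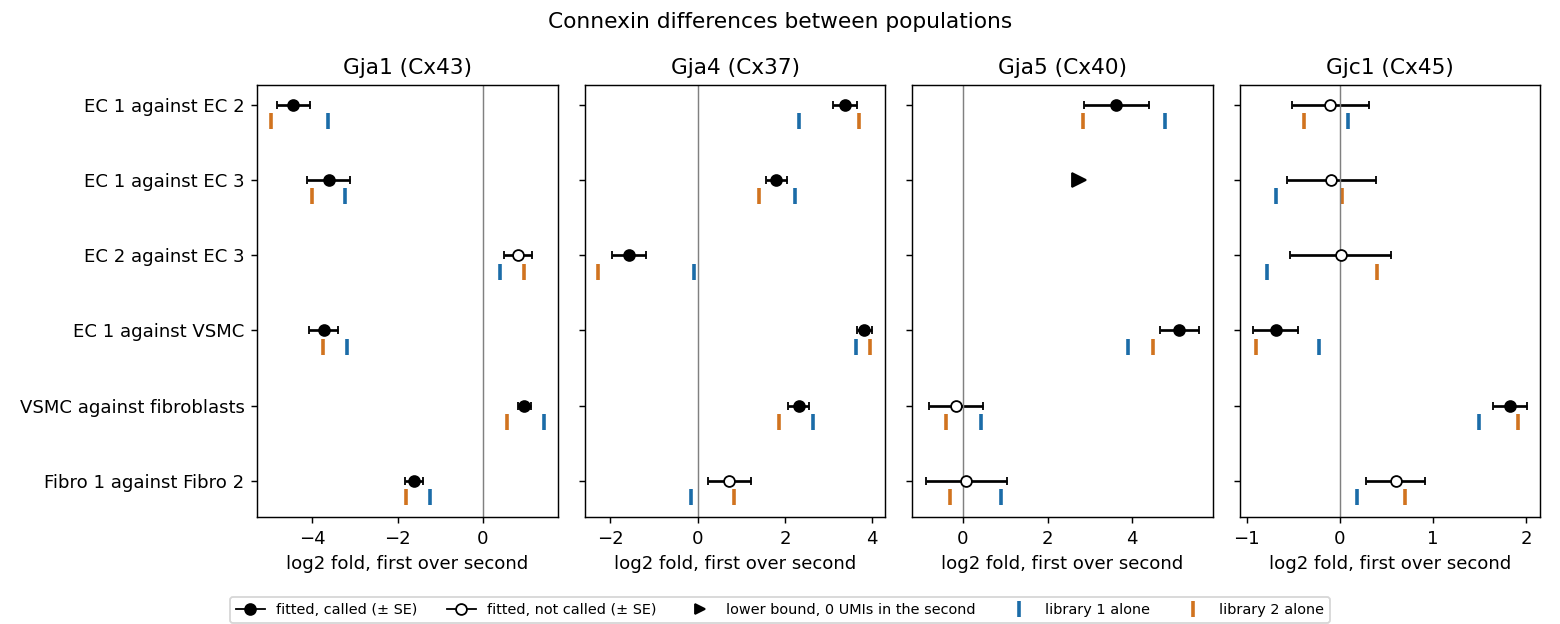
Log2 fold of each connexin (horizontal axis) in 6 comparisons of populations (vertical axis), from the joint fit ± SE, with each library alone as coloured ticks. Filled circles passed an adjusted p of 0.05. The triangle marks the lower bound of 6.68-fold for Gja5, which had no UMI in EC 3, and no value is drawn for Gja5 between EC 2 and EC 3. Gja1 lies left of 0 and Gja4 right of 0 in each comparison of EC 1. The library 1 tick of Gja5 between EC 1 and EC 2 rests on a prior count, with 0 UMIs in EC 2.

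Populations differed in depth, so shares of cells with a UMI were also compared after thinning every cell to 1300 UMIs, which left out no cell. In full cells Gja4 was seen in 67.6% and 72.6% of EC 1 cells, and after thinning in 45.9% and 38.3%. Mono 1 cells, at full median depths of 3574 and 4421.5 UMIs against 3286.5 and 4710 in EC 1, had Gja4 in 4.97% and 2.29%. Gja5 was seen in 16.9% and 20.6% of EC 1 cells in full and in 4.73% and 5.42% after thinning. In full EC 2 cells it was seen in 0 of 56 and 3 of 173. Gja1 was seen after thinning in 28.6% and 16.8% of EC 2, 19.1% and 11.0% of VSMC, 13.0% and 12.4% of Fibro 2, and 1.35% and 0.361% of EC 1. Mono 1 gave 2.21% and 0.763% for Gja1, above the EC 1 share in each library, and Mono 2 gave 0% in both. Gjc1 was seen after thinning in 6.07% and 7.2% of VSMC, 4.73% and 4.33% of EC 1 and 1.1% and 0% of Mono 1. For Gja4 the order of the endothelial shares was the order of their CPM in each library.

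**Figure D4:**
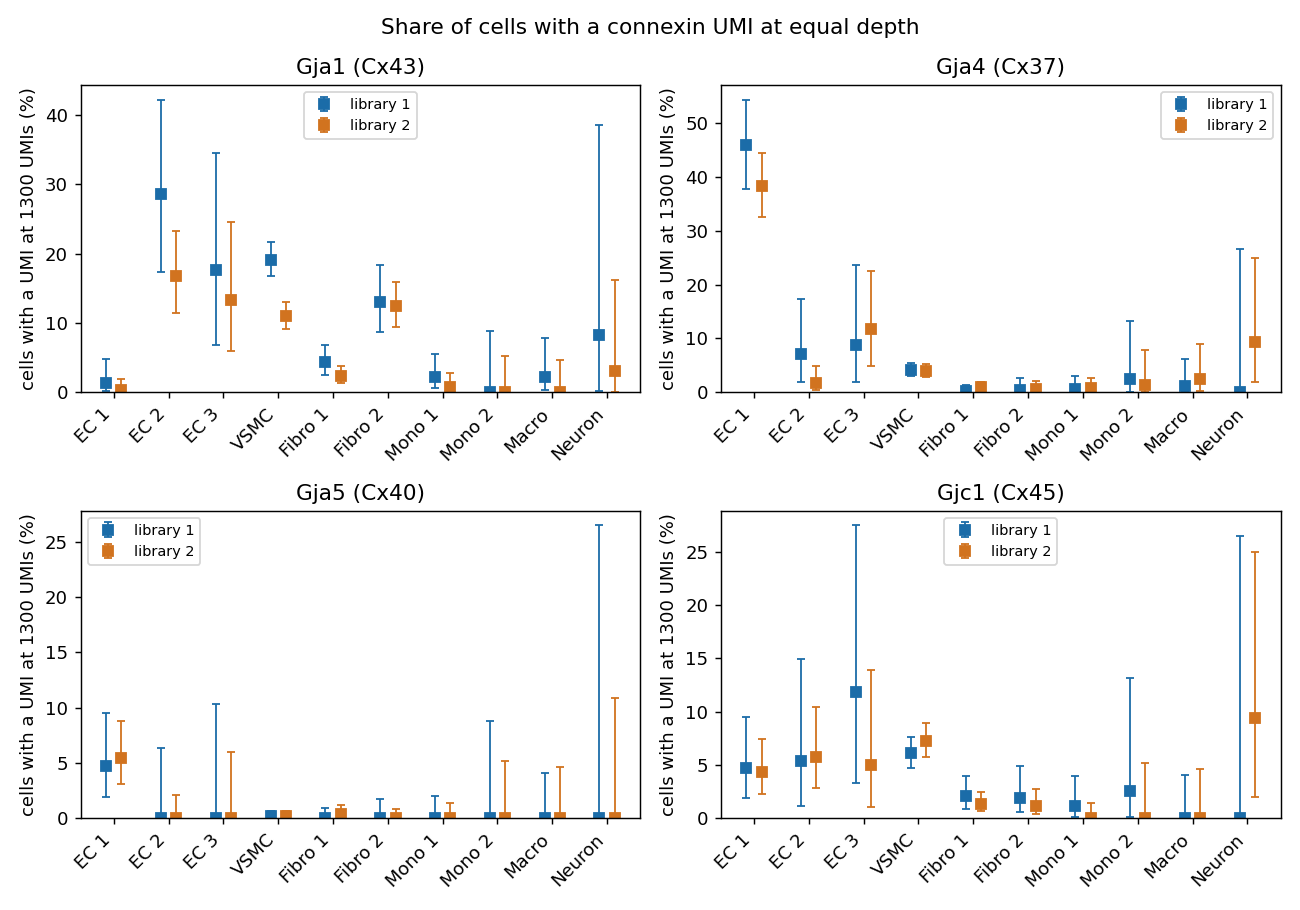
Percent of cells with at least 1 UMI of each connexin (vertical axis) after every cell was thinned to 1300 UMIs, by population (horizontal axis). Squares are libraries and bars exact 95% binomial intervals. Gja4 reaches 45.9% and 38.3% of EC 1 cells, Gja1 is seen in under 1.4% of EC 1 cells, and Gjc1 shares overlap among the endothelial populations and VSMC.

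Since Gja4 and Gja5 were both highest in EC 1, it was asked whether the same cells carried both. At 1300 UMIs Gja5 was seen in 12 of 174 EC 1 cells with Gja4 (6.9%, interval 3.61 to 11.7) and in 10 of 251 without it (3.98%, 1.93 to 7.2). The intervals overlap, so a link within cells was not detectable at this depth. In VSMC Gjc1 was seen in 6.42% of 327 cells with Gja1 (4.02 to 9.65) and in 6.66% of 1832 cells without it (5.56 to 7.9). Gja1 was seen in 1 of 174 EC 1 cells with Gja4 and in 2 of 251 without. Gja1 and Gja4 were found together in 1 of 229 EC 2 cells, 1 of 94 EC 3 cells and 15 of 2159 VSMC. Cells are not replicates, and these shares carry no test.

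The total of each connexin in the table depended on cell numbers as well as levels. VSMC held 79.2% of the 1245 Gja1 UMIs of library 1 and 51.3% of the 1260 of library 2. They held 75.6% and 67.3% of the Gjc1 UMIs. EC 1, with 148 and 277 cells, held 51.2% and 64.4% of the Gja4 UMIs and 70.7% and 71.1% of the Gja5 UMIs. VSMC held 38.9% and 20.6% of Gja4. These are shares of the sequenced cells, not of the intact wall.

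The genes most like each connexin were ranked by Pearson correlation of log2(CPM + 5) over the 20 sums of library and population, which share 2 libraries and differ in depth. They are a description only. For Gja4 they were Mob2 (r = 0.91), Crim1, Rph3al, Erg, an endothelial transcription factor, and Myrip, all highest in EC 1. For Gja5 they included Atp2b2 (r = 0.93), a plasma membrane calcium pump, Klk11, Serpina1e and Nkx2-3, these 4 all highest in EC 1. For Gja1 they were Mgll (r = 0.89), the monoacylglycerol lipase, Mprip, Flywch1, Gna11 and Tprgl, and for Gjc1 Bcar1 (r = 0.89), Pacsin3, Cyb5r3, Tsc22d1 and Pnkd. Among the connexins themselves, Gja4 had r = 0.64 with Gja5 and with Gjc1 and r = 0.09 with Gja1, and Gja1 had r = -0.27 with Gja5.

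Other gap junction genes from a list of 23 connexins and pannexins are described for Gjb1, Gjb5, Gjc3 and Panx1. Of these, Gjc3 and Panx1 passed the filter on low counts. Gjc3 and Gjb1, both known from myelinating glia, had 12 and 6 UMIs in Neuron. Neuron thus held these glial connexins in both libraries (92.3 and 85.4 CPM of Gjc3), while Gja4 and Gjc1 had no UMI in library 1. With 12 cells there, the interval for 0 UMIs reaches 85.2 CPM. Library 2 had 74.8 CPM of Gja4 (30.1 to 154) and 128 CPM of Gjc1 (66.2 to 224). A difference between the libraries is therefore not shown for Gja4 or Gjc1. Panx1, which forms channels to the outside of the cell, was lower in VSMC than in the fibroblasts by -3.70 ± 0.56 (adjusted p = 1.23e-06) and lower in Fibro 1 than in Fibro 2 by -1.67 ± 0.49 (adjusted p = 0.0161). Gjb5 lies near Gja4 on chromosome 4, and 37 of its 49 UMIs were in Fibro 2, where Gja4 was among the lowest. Gja5 overlaps the transcript 4930573H18Rik, which had no row.

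**Figure D5:**
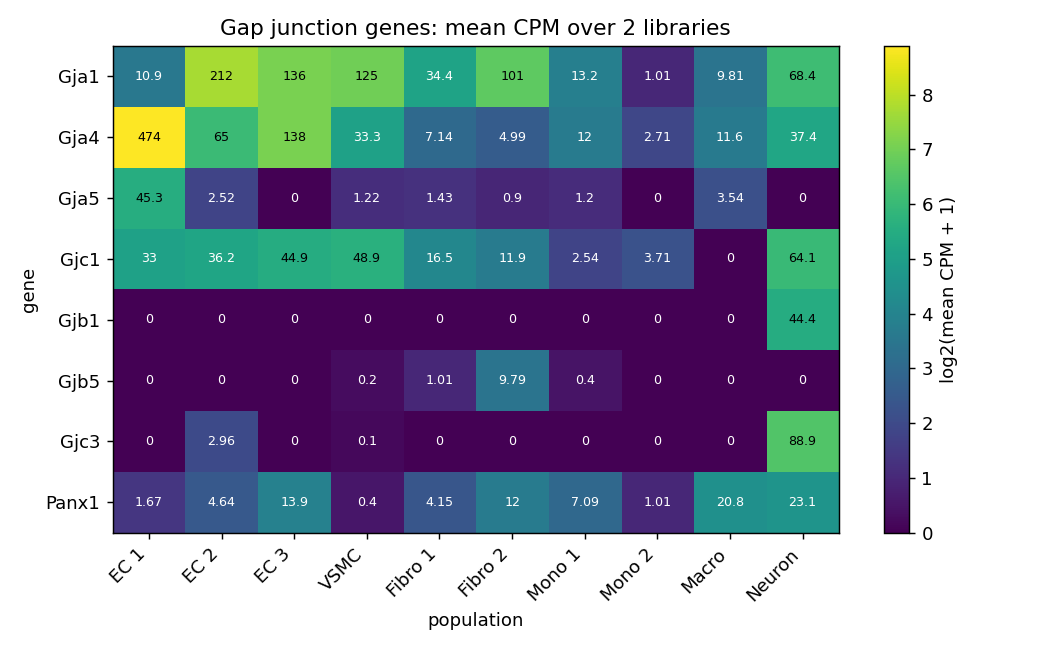
Mean CPM over both libraries (numbers in the cells) of 8 gap junction genes (vertical axis) in 10 populations (horizontal axis), with colour on the scale log2(mean CPM + 1). Gja4 is brightest in EC 1 at 474 CPM, Gjb5 is highest in Fibro 2, and Gjc3 and Gjb1 are seen in Neuron.

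Proteins that bind connexins or anchor gap junction plaques moved in both directions. Of 26 such genes tested, 4 were higher and 8 lower in EC 1 than in EC 2 (20.3% of all genes were called), with a median log2 fold of -0.18 against 0.01 over all genes. Akap2, an anchor for protein kinase A, was lower in EC 1 (-2.95 ± 0.23, adjusted p = 5.56e-12). Ocln, the tight junction protein occludin, had 80 UMIs in EC 1 and none in EC 2, so it was at least 9.7-fold higher in EC 1. Cdh2, the adherens junction cadherin of mural and mesenchymal cells, had 1 UMI in EC 1 and 12 in EC 2. Between EC 1 and VSMC 13 were higher and 5 lower (all genes 40.0%, median 0.38 against -0.03), with Cdh5, the endothelial cadherin, highest against VSMC at 6.24 ± 0.17 (adjusted p = 3.7e-23) after Ocln. Nov, a secreted protein that binds Cx43, was lower in EC 1 than in VSMC (-4.60 ± 0.19, adjusted p = 4.45e-19). Between VSMC and the fibroblasts 11 were higher and 9 lower (48.3%, median 0.11 against -0.01), with Nov (3.40 ± 0.11, adjusted p = 6.43e-22) and Actn1, an actin crosslinker (3.65 ± 0.15, adjusted p = 1.97e-19), among the largest. In EC 1, 2 genes were higher and 3 lower than in EC 3 (11.6%, median 0.02 against 0.03). In EC 2, 6 were higher and 2 lower than in EC 3 (11.7%, median 0.25 against 0.01), and in Fibro 1, 5 were higher and 2 lower than in Fibro 2 (15.5%, median 0.13 against 0.02).

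Of 21 genes tested from a list of transcription factors and signals known to act on connexin genes in vessels, 4 were higher and 7 lower in EC 1 than in EC 2 (all genes 20.3%, median 0.03 against 0.01). Hey2, a target of Notch signalling, had 159 UMIs in EC 1 and 3 in EC 2, and Foxc2 had 149 and 2. Hey1, a related Notch target, went the other way (-3.19 ± 0.51, adjusted p = 1.75e-05), as did Tbx3, a repressor known from the heart's conduction system (-4.98 ± 0.64, adjusted p = 4.43e-07). Against EC 3, 5 were higher and 4 lower in EC 1 (all genes 11.6%, median 0.17 against 0.03). Sox17, an arterial transcription factor, was higher in EC 1 by 4.47 ± 0.39 (adjusted p = 3.57e-10), and Prox1, which specifies lymphatic endothelium, had 75 UMIs in EC 3 and none in EC 1. Between EC 2 and EC 3, 7 were higher and 3 lower (all genes 11.7%, median 0.48 against 0.01), with Sox17 at 5.33 ± 0.36 (adjusted p = 1.6e-12). Sox17 stood at 203 CPM in EC 1 and 399 CPM in EC 2. Between EC 1 and VSMC 17 were higher and 2 lower (all genes 40.0%, median 2.65 against -0.03), in a list made up largely of endothelial genes. Between VSMC and the fibroblasts 4 were higher, with Myocd, a coactivator of smooth muscle genes, at 4.03 ± 0.26 (adjusted p = 2.27e-14), and 5 lower (all genes 48.3%, median 0.05 against -0.01). Between Fibro 1 and Fibro 2, 5 were higher and 2 lower (all genes 15.5%, median 0.12 against 0.02), with Klf2, a flow-responsive factor, at -1.29 ± 0.21 (adjusted p = 2.98e-05).

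The promoters of the members are shown because Gja4 and Gja5 were both highest in EC 1 while Gja1 was lower there than in EC 2 and EC 3. The RefSeq promoter table (GRCm38.p6) matched 3 of the 4 genes, and the 250 bases before each start are given 5′ to 3′ on the gene's strand. Capitals mark matches on either strand to CACCC, the core read by KLF factors, or to TGANTCA, the AP-1 motif. Gja1 lies at chr10:56377050-56377299 (plus strand), Gja4 at chr4:127314040-127314289 (minus strand) and Gja5 at chr3:97032152-97032401 (plus strand).
Gja1: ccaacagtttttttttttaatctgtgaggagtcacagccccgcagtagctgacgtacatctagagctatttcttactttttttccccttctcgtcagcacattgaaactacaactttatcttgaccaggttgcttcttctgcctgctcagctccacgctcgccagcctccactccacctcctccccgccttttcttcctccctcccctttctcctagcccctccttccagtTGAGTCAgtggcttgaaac
Gja4: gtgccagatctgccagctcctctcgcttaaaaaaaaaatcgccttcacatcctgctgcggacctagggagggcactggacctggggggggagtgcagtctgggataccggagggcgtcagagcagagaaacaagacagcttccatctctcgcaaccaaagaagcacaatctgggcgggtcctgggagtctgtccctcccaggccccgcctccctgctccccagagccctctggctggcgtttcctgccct
Gja5: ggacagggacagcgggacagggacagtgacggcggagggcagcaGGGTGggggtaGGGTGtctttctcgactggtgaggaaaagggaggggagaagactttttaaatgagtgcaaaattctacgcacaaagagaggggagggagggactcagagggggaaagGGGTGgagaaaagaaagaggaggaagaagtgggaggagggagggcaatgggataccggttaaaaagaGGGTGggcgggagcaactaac
Gja5 held 4 matches to CACCC, all on the opposite strand and starting 206, 195, 88 and 21 bases before the start, and 52.0% of the 32851 promoters in the table hold at least 1. Gja1 held 1 match to TGANTCA, 19 bases before the start, a motif in 6.75% of promoters. Gja4 held neither. The motif AACAAT (a core of SOX factors, in 9.42% of promoters), was in none of the 3 windows. The matches are letters in a window and say nothing of binding in these cells.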

How the data were processed

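Droplet libraries (10x v2) of 2 aortas were used. The authors deposited raw counts of UMIs per gene and cell, with a population name per cell. The submitters' processing notes name Cell Ranger 2.1. The genome build and annotation are not given in the sources used here. Every cell had at least 1322 UMIs. UMIs were added up by population and library (20 sums, each with at least 10 cells), filtered with filterByExpr (10488 genes) and normalized by TMM. The edgeR 4.0.16 fit (R 4.3.3) had terms for population and library and 9 residual degrees of freedom. SE was derived as |log2 fold| divided by the root of F. With the library term in the fit, the p-values measure how much differences between populations vary between these 2 libraries, pooled over populations. This spread may be partly technical. A fold against 0 UMIs is a lower bound that takes 3 counts in the whole population, and for 1 to 3 UMIs a ratio with its counting interval is given. Folds per library carry a prior count of 2, also where a population had 0 UMIs.

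Members, gene lists and comparisons were chosen with earlier results of these data known. Named were the 4 connexins, gap junction genes with a UMI, up to 4 called genes per list and comparison with the largest fold, the 5 genes most like each connexin, and defining markers. Some genes that fall under this rule are not reported here. The valve genes described in EC 3 were added after their values were seen. Alternatives were RLE factors, DESeq2 1.42.0, no filter, no library term, each library alone, thinned cells, equal weight of cells (log2 after adding 5 CPM), Scrublet doublets left out (46 and 34 cells; scanpy 1.11.5), only the populations compared, Leiden clusters made without gap junction genes (94.0% of cells kept their name), endothelial cells with at least 2 pericyte UMIs left out, and adjustment over all pairs. On simulated counts, 59% of genes changed 2-fold and 95% of those changed 4-fold were recovered between EC 1 and EC 2, and 14 of 2000 unchanged genes were called. Python was 3.11.15, with scipy 1.17.1, numpy 2.4.6, matplotlib 3.10.9 and pandas 2.3.3.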

Additional observations from a re-analysis of the deposited data

How the results depend on the processing

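With 2 libraries of 1 group, differences between mice could not be studied, and the SE rests on 9 residual degrees of freedom shared by all populations. The 15 connexin calls kept their direction and their side of the threshold under RLE factors and with doublets left out. They also did so with clusters made without gap junction genes and with pericyte-rich endothelial cells left out. Each new cluster took the authors' most frequent name in it, and 99.8%, 99.6% and 98.9% of EC 1, EC 2 and EC 3 cells kept theirs. Agreement with these clusters is therefore a weak check on the clustering. The calls lost were Gja4 between EC 2 and EC 3 in DESeq2 (-1.20) and thinned cells (-1.66), and Gjc1 between EC 1 and VSMC in DESeq2 (-0.61), with no replicate block (-0.64) and in thinned cells (-0.61). Gja1 between EC 2 and EC 3 was called with no filter (0.88) and with clusters made without gap junction genes (0.87). Folds near 0 changed sign, none of them called: Gjc1 between EC 1 and EC 2 with pericyte-rich cells left out (0.19) and with equal weight of cells (0.10), between EC 1 and EC 3 with no filter (0.00), and between EC 2 and EC 3 in DESeq2 (-0.04), with no replicate block (-0.01), in thinned cells (-0.23) with pericyte-rich cells left out (-0.21) and with equal weight of cells (-0.48), and Gja5 between the fibroblasts with clusters made without gap junction genes (-0.61). The cause of these changes was not tested.

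Thinned cells, which hold fewer UMIs, gave fewer called genes in the order of the comparisons above, 1270, 692, 660, 2280, 2765 and 743, against 2130, 1218, 1226, 4199, 5061 and 1626. Between the fibroblasts DESeq2 called 1078 and the fit with no replicate block 939. With equal weight of cells and 5 CPM added, Gja5 was 3.35 between EC 1 and EC 3, 0.51 between EC 2 and EC 3 and 3.05 between EC 1 and VSMC, Gja1 was 0.31 between EC 2 and EC 3 and -3.23 between EC 1 and VSMC, and Gjc1 was 1.51 between VSMC and the fibroblasts.

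Each library alone gave, for Gja4, 2.32 to 3.69 between EC 1 and EC 2 and -0.15 to 0.84 between the fibroblasts. For Gja5 it gave 2.85 to 4.78 between EC 1 and EC 2, 4.78 to 5.42 between EC 1 and EC 3, 0.00 to 2.56 between EC 2 and EC 3, 3.91 to 4.49 between EC 1 and VSMC and -0.41 to 0.43 between VSMC and the fibroblasts. Gja5 had no UMI in EC 2 and Fibro 2 of library 1 or in EC 3 of either library. The sizes that use these sums rest on the prior count. For Gja1 each library alone gave 0.39 to 0.97 between EC 2 and EC 3 and -3.76 to -3.19 between EC 1 and VSMC. For Gjc1 it gave -0.69 to 0.02 between EC 1 and EC 3, 1.50 to 1.91 between VSMC and the fibroblasts and 0.19 to 0.70 between the fibroblasts. Of the 40 levels in CPM, 11 moved by more than 1 SD in thinned cells, 6 with equal weight of cells and 2 without doublets. Gja5 did not pass the filter in thinned cells, so no value was computed there. Adjustment over all pairs was not run for VSMC against the fibroblasts, which is not a pair.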
